A study of Mus musculus with 15 samples.

Results

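The 46 genes described here encode the machinery that copies DNA and the enzymes that supply it with deoxynucleotides. They were taken as a fixed list of mouse gene symbols, and they are 46 of the 41388 genes counted in the tables. All 46 passed the filter on low counts, which left 13904 genes for testing. A20 is a B-cell lymphoma line of the BALB/c mouse strain. The parental line, labelled wild type, was compared with 4 CRISPR clones. E6.1 and E6.2 carry a mutation in *Foxp1* exon 6, while E7.1 and E7.2 carry theirs in exon 7. *Foxp1* encodes a forkhead transcription factor of B cells. For each line, bulk RNA was sequenced from 3 cultures taken at separate passages, giving 15 libraries in all. Each clone was grown from a sorted cell that had received a plasmid with Cas9, a guide and a fluorescent marker, so that the mutation and any other feature of the founding cell cannot be told apart within 1 clone.

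DNA replication starts at origins that are bound by the origin recognition complex, which loads the MCM helicase with the help of Cdc6 and Cdt1 during G1. In S phase Cdc45 and the GINS complex join the helicase, polymerase alpha-primase lays down primers, and polymerases delta and epsilon extend them with the sliding clamp Pcna and its loader. Most of these genes, like those of ribonucleotide reductase and thymidylate synthase, are known targets of the E2F factors, and their transcripts are known to be abundant in cells that are about to enter or are in S phase, while several subunits of the origin recognition complex vary little over the cycle.

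Between 26328054 and 39181530 read pairs were counted on genes per library. Levels are given as CPM, counts scaled to the total of each library with TMM factors, and 3 counts, the smallest number treated as detectable, corresponded to between 0.0751 and 0.118 CPM, which covers counting error only. *Foxp1* itself was measured at 138 ± 32.7 CPM (SD, n = 3) in parental cells, with 104 ± 4.60 and 106 ± 2.38 CPM for clones E6.1 and E6.2 and 56.8 ± 13 and 43.0 ± 8.19 CPM for clones E7.1 and E7.2. All 8 B-cell markers were present in all 15 libraries, with a lowest value of 10.1 CPM. Of the 5 T-cell markers, *Cd3e* was at 0 in 15 libraries and *Cd3g*, *Cd3d* and *Cd8a* in 13 each, while *Cd4* was counted in all, at 0.133 to 0.607 CPM. Of the 4 myeloid markers, *Lyz2* was at 0 in 14 libraries, *Csf1r* in 10 and *Itgam* in 1, and *Adgre1* was counted in all, at 0.421 to 7.56 CPM. The 4 fibroblast markers were at 0 in 3 to 14 libraries, with no value over 0.562 CPM. E7.2 replicate 3 stood apart from the other libraries of its clone in the replication genes, as described below. E6.2 replicate 3 did so less clearly. It had the lowest median ratio to parental cells of its clone, -0.61. Yet 35 members lay below the lowest parental library there and 34 in E6.2 replicate 1, and *Mcm3* and *Mcm6* were highest in replicate 3 of the clone. Results are given for all 15 libraries and for the 13 without these 2. This choice was made with that deviation known, and it leaves 2 libraries each for E6.2 and E7.2. Leaving out libraries that deviate in the genes tested also lowers the spread of those genes within lines. P-values and counts of called members with 13 libraries are therefore given as description only.

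**Figure D1:**
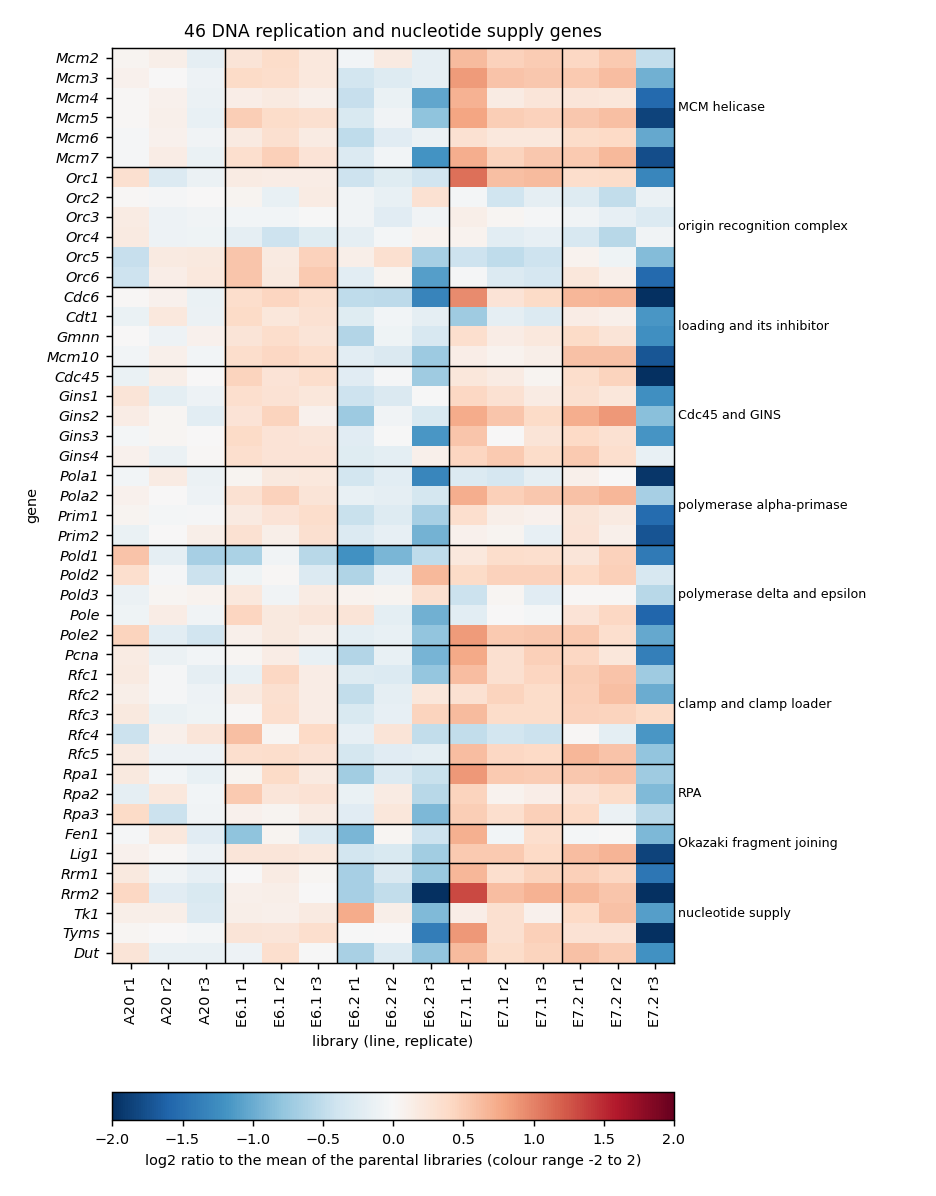
Heat map of the log2 ratio of each of the 46 genes (vertical axis, grouped by role) in each of the 15 libraries (horizontal axis) to the mean of the 3 parental libraries, with red above and blue below the parental mean. E7.2 replicate 3 is blue for most genes, with a median ratio of -1.16, E6.2 replicate 3 follows with -0.61, and the *Orc2*, *Orc3* and *Orc4* strips are pale throughout.

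In parental cells the levels per length of these genes spanned a wide range. RPKM, in which CPM are divided by the length of the exons in kilobases and which allow genes of different length to be compared, were highest for *Pcna* at 159 ± 16.7 (SD, n = 3), *Orc2* at 135 ± 2.46, *Rrm1* at 102 ± 13.5 and *Mcm6* at 100.2 ± 5.14. The 6 helicase subunits, which form a hexamer, lay between 36.1 ± 3.64 RPKM for *Mcm7* and the level of *Mcm6*. The origin recognition complex was far less even, from 6.06 ± 1.37 RPKM for *Orc1* to the level of *Orc2*. *Fen1*, the nuclease that trims Okazaki fragments, was listed at 1.06 ± 0.196 RPKM and the GINS subunit *Gins2* at 1.56 ± 0.205 RPKM. These were the lowest levels of the 46 genes, and both counts are uncertain. In the annotation that was counted, 84.2% of the exon bases of *Fen1* are shared with *Tmem258* and *Gm10143* and 67.3% of those of *Gins2* with *Gse1*, and read pairs that overlap more than 1 gene were left out. For *Orc2* the shared part was 29.8%, with *Nif3l1*, and for 10 other members it was between 0.699% and 12.6%. Near-identical transcripts elsewhere in the genome covered 72.8% of *Mcm7* (*Gm5487*), 51.4% of *Pcna* (*Pcna-ps2*), 36.5% of *Rfc5* (*Gm12870*) and 33% of *Cdc6* (*Gm9430*), and read pairs that align at several places were also left out.

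**Figure D2:**
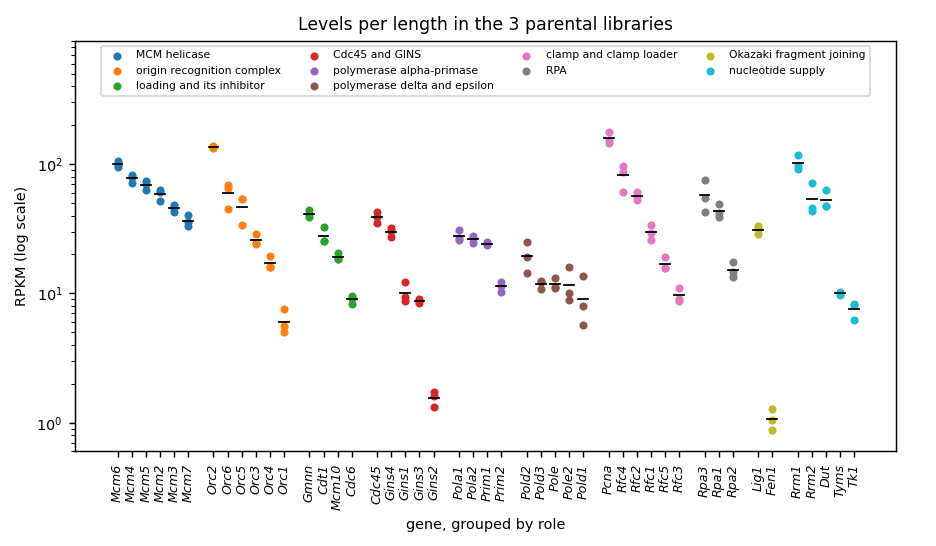
Level of each gene in the 3 parental libraries (points) with their mean (bar), in RPKM on a logarithmic vertical axis, with the genes grouped by role along the horizontal axis. *Pcna* and *Orc2* are the highest, and *Fen1* and *Gins2*, whose exons overlap most with other genes, are the lowest.

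The largest spread in the replication genes lay between libraries of the same clone. In E7.2 replicate 3 the median log2 ratio of the 46 genes to the parental mean was -1.16, against -0.02 over all tested genes, and 43 of the 46 lay below the lowest parental library, against 35% of all tested genes. In the other libraries of E7.2 the median ratios were 0.40 and 0.39, with 36 and 31 of the 46 above the highest parental library, against 26.1% and 28.3% of all tested genes. E6.2 replicate 3 had a median ratio of -0.61, with 35 of the 46 below the lowest parental library, against 36.7% of all tested genes. E6.2 replicates 1 and 2 lay at -0.29 and -0.16, with 34 and 25 of the 46 below the lowest parental library, against 36.5% and 26.1% of all tested genes. The summed level of the 46 genes was 2947 CPM in E7.2 replicate 3, 4307 CPM in E6.2 replicate 3 and between 4796 and 8224 CPM in the other libraries. Since bulk RNA was measured, fewer cells in S phase and less RNA of these genes per cell cannot be told apart.

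Other properties of the libraries were compared with that deviation. E7.2 replicate 3 had the highest share of counts on mitochondrial genes, 10.4% against a median of 3.58% and a lowest value of 0.848% over the 15 libraries, and the lowest TMM factor, 0.826. E6.2 replicate 3 had the next lowest factor, 0.906, but its mitochondrial share of 2.35% lay below the median. E6.2 replicate 1, which was kept among the 13 libraries, had the next highest mitochondrial share, 7.28%, the highest share of counts on the 10 most abundant genes, 20.4%, and the lowest total count. The part of these properties in the result was not tested. A list of 25 genes of mitosis had a median ratio of -1.55 in E7.2 replicate 3 and -0.61 in E6.2 replicate 3. A list of 25 accessory replication genes had -0.95 and -0.49, and 27 further genes of nucleotide synthesis had -0.35 and -0.02. The 8 B-cell markers had a median ratio of 0.08 in E7.2 replicate 3, unlike the replication genes, but of -0.53 in E6.2 replicate 3, close to the -0.61 of the 46 genes.

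**Figure D3:**
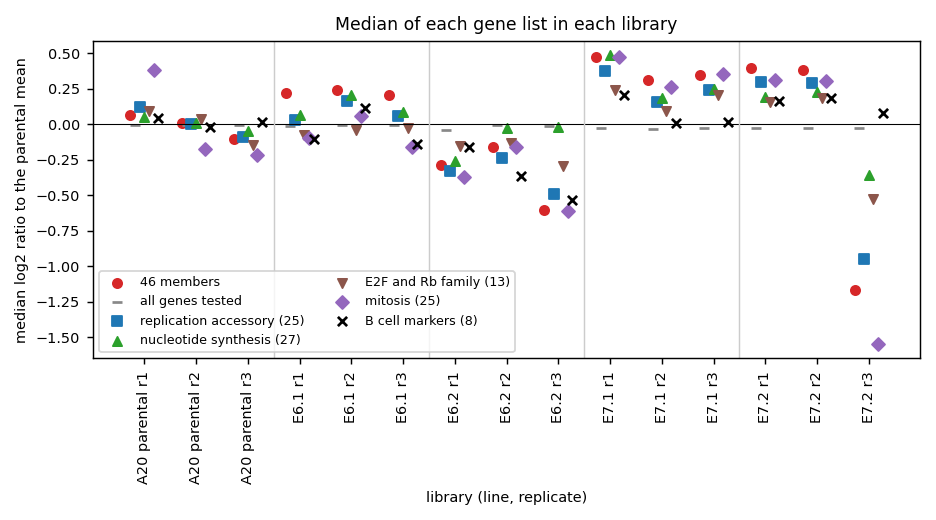
Median log2 ratio to the parental mean (vertical axis) of the 46 genes, of all tested genes and of 5 other lists, with the number of genes in brackets, in each of the 15 libraries (horizontal axis). In E7.2 replicate 3 the 46 genes lie at -1.16 and the mitosis list at -1.55, while the B-cell markers lie at 0.08.

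With all 15 libraries, 0 of the 46 genes passed an adjusted p of 0.05 in any of the 9 comparisons made with edgeR's quasi-likelihood test and Benjamini-Hochberg adjustment over all tested genes. The share of all tested genes called was 0.324% and 1.17% for E6.1 and E6.2 against parental cells, and 1.22% and 0.295% for E7.1 and E7.2. It was 0.503% for the mean of the 4 clones against parental cells, 12.1% for the E7 against the E6 clones, 1.24% for E6.2 against E6.1, 0.59% for E7.2 against E7.1 and 6.28% for any difference among the 5 lines. At an unadjusted p under 0.05 0 members of 46 in E6.1 and 1 (*Pold1*) in E6.2 differed from parental cells, where 6.71% and 13.1% of all tested genes did. There were 7 in E7.1 and 1 (*Rfc3*) in E7.2, against 20% and 13.3% of all tested genes. There were 0 for the mean of the clones, against 9.9% of all tested genes, and 13 for the E7 against the E6 clones, against 30.3%, so that the share of the members was no higher. There were 6 for E6.2 against E6.1, 1 for E7.2 against E7.1 (*Orc1*) and 5 for any difference, against 12.9%, 13.3% and 27.8%. DESeq2's test called 4 members for the E7 against the E6 clones (*Orc5, Pold1, Rfc3* and *Rpa1*), 3 for any difference (*Orc1, Gins4* and *Rpa1*) and 0 in the other 7 comparisons. That test called 19.4% and 22.6% of all tested genes in the first 2 of these and between 1.12% and 8.87% in the other 7. The median SD of the 46 genes within a line was 0.47 on the log2 scale, against 0.31 over all tested genes, and without the 2 deviating libraries it was 0.15 against 0.22.

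Without those 2 libraries, 14284 genes were tested and the counts of called members differed. The libraries were left out for their deviation in these same genes. The p-values and counts with 13 libraries are thus descriptive, as is any excess over the share of all tested genes. In E6.1 and in E6.2 against parental cells 0 of the 46 passed, where 0.924% and 2.26% of all tested genes did. At an unadjusted p under 0.05 there were 23 members in E6.1, 22 of them higher than in parental cells, against 13.2% of all tested genes, and 17 in E6.2, 1 of them higher, against 20.6%. In E7.1, 21 of the 46 were called higher and 0 lower, where 8.8% of all tested genes were called higher. In E7.2, 10 were called higher and 0 lower, where 0.882% of all tested genes were called higher. For the mean of the 4 clones against parental cells the only member called was *Pola2*, a subunit of the priming polymerase, with a log2 fold change of 0.36 (SE 0.08, adjusted p = 0.0469), where 1.16% of all tested genes passed. A difference of any kind among the 5 lines was called for 34 of the 46, where 28.6% of all tested genes passed. In the fit of only E7.1 and parental libraries, which holds neither of the deviating libraries, 2 members were called in E7.1, where 1.29% of the genes tested were. They were *Mcm3*, with a log2 fold change of 0.68 (adjusted p = 0.0416 from edgeR), and *Pola2*, with 0.60 (adjusted p = 0.0471).

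The order of the libraries gave a further description that needs no model. All 3 libraries of E6.1 lay above all 3 parental libraries for 22 of the 46 genes, where 11.3% of all tested genes did, and below them for 1 (*Orc4*), where 11.2% did. For E6.2 the counts were 0 above and 17 below, where 6.13% and 8.61% of all tested genes were. For E7.1 they were 26 above and 3 below (*Orc2, Cdt1* and *Pola1*), where 16.4% and 15.6% were. For E7.2, whose replicate 3 enters here, they were 1 above (*Rfc3*) and 1 below (*Orc2*), where 10.8% and 13.3% were. All of these comparisons share the parental libraries.

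The 6 subunits of the MCM helicase, which unwinds the DNA, were all higher in E6.1, E7.1 and, with the 2 replicates that did not deviate, E7.2 than in parental cells. With all 15 libraries none of these genes passed the test in any clone, and in E6.1 none did with 13 libraries either. *Mcm3* was measured at 180.1, 172 and 159 CPM in the parental libraries, 222, 216 and 198 for E6.1, 132, 143 and 150.4 for E6.2, 307, 255 and 249.1 for E7.1 and 244, 261 and 87.4 for E7.2, in the order of the replicates. All libraries of E6.1 and E7.1 lay above the parental range, those of E6.2 lay below it, and E7.2 replicate 3 was the lowest of the 15. In E7.1 the log2 fold change with its standard error (SE) was 0.66 (SE 0.28, adjusted p = 0.202) with all libraries and 0.69 (SE 0.10, adjusted p = 0.00433) with 13. *Mcm6*, the most abundant subunit per length, was measured at 462, 494 and 447 CPM in the parental libraries, 531, 582 and 525 for E6.1, 328, 401 and 429.8 for E6.2, 578, 544 and 543 for E7.1 and 606, 617 and 231 for E7.2. All E6.1 and E7.1 libraries lay above the parental range, and E7.2 held the 2 highest and the lowest of the 15 values. With 13 libraries, *Mcm2, Mcm3, Mcm5* and *Mcm7* were called higher in E7.1, with log2 fold changes from 0.57 to 0.69, while *Mcm4* at 0.41 (SE 0.14, adjusted p = 0.06) and *Mcm6* at 0.27 (SE 0.11, adjusted p = 0.113) were not. In E7.2, *Mcm3, Mcm5* and *Mcm7* were called, with log2 fold changes of 0.60, 0.61 and 0.62.

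The origin recognition complex, which marks the sites where the helicase is loaded, did not move as a unit. *Orc1*, the subunit that is known to be made in G1 and degraded afterwards, was measured at 26.5, 17.4 and 19.3 CPM in the parental libraries, 23.6, 23.5 and 23.4 for E6.1, 15.7, 17.7 and 16.1 for E6.2, 46, 32.0 and 33.1 for E7.1 and 27.0, 27.4 and 8.21 for E7.2. E7.1 lay above all other libraries. The log2 fold change there was 0.81 (SE 0.33, adjusted p = 0.184) with all libraries and 0.84 (SE 0.16, adjusted p = 0.0104) with 13. *Orc2*, the most abundant subunit, was measured at 528, 509.8 and 523 CPM in the parental libraries, 539.9, 468 and 585 for E6.1, 493, 472 and 640.0 for E6.2, 504, 394 and 460.3 for E7.1 and 434, 369 and 480.1 for E7.2. The parental libraries lay within a narrow range, all E7.1 and E7.2 libraries lay below them, and E6.2 replicate 3 was the highest of the 15. Neither difference passed the test, with log2 fold changes of -0.20 (SE 0.16, adjusted p = 0.519) in E7.1 and -0.28 (SE 0.16, adjusted p = 0.454) in E7.2. *Orc3* and *Orc4* had log2 fold changes against parental cells between -0.30 and 0.05 over the 4 clones.

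*Orc5* and *Orc6*, the remaining subunits, had their largest values in E6.1. *Orc5* was measured at 95.9, 151 and 151 CPM in the parental libraries, 194, 151 and 183 for E6.1, 144, 166 and 83.8 for E6.2, 99.5, 93.5 and 99.96 for E7.1 and 139, 125 and 72.2 for E7.2. Parental replicate 1 lay far below the other parental libraries, and all E7.1 libraries lay below the other parental libraries. *Orc6* was measured at 73.8, 108 and 115 CPM in the parental libraries, 145, 113 and 141 for E6.1, 85.1, 103 and 45.9 for E6.2, 97.0, 81.4 and 78.0 for E7.1 and 116, 106 and 33.3 for E7.2. Its parental libraries were split in the same way. The log2 fold changes in E6.1, the largest of all members in that clone, were 0.43 (SE 0.37, adjusted p = 0.947) for *Orc6* and 0.41 (SE 0.27, adjusted p = 0.897) for *Orc5*. In the same parental library *Rfc4*, a subunit of the clamp loader, was also low, at 93.3 CPM against 134 and 149 CPM.

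Among the factors that load the helicase, *Cdc6* and the licensing inhibitor *Gmnn* (geminin) lay above the parental range in E6.1 and E7.1 like the MCM genes, while *Cdt1* did so in E6.1 but not in E7.1. *Cdc6* was measured at 48.3, 50.4 and 43.1 CPM in the parental libraries, 60.5, 64.0 and 59.5 for E6.1, 33.0, 32.7 and 18.7 for E6.2, 91.6, 57.5 and 62.1 for E7.1 and 75.3, 75.7 and 10.4 for E7.2. All E6.1 and E7.1 libraries lay above the parental range and all E6.2 libraries below it. In E6.2 its log2 fold change was -0.75 (SE 0.48, adjusted p = 0.521), and with 13 libraries it was -0.53 (SE 0.16, adjusted p = 0.111). *Gmnn* was measured at 60.7, 56.6 and 64.7 CPM in the parental libraries, 72.6, 77.5 and 72.5 for E6.1, 40.4, 57.4 and 48.4 for E6.2, 76.4, 67.6 and 70.2 for E7.1 and 79.1, 72.9 and 25.6 for E7.2. All E6.1 and E7.1 libraries again lay above the parental range, while those of E6.2 overlapped it. *Cdt1*, which geminin binds, lay above the parental range in all E6.1 libraries, at 75.5 ± 3.98 CPM against 60.9 ± 8.63 in parental cells, and below it in all E7.1 libraries. It had a log2 fold change of -0.35 (SE 0.14, adjusted p = 0.113) in E7.1 with 13 libraries, opposite in sign to *Cdc6* at 0.60 (SE 0.14, adjusted p = 0.0182). *Mcm10*, which helps to activate the loaded helicase, was called higher in E7.2 with 13 libraries, at 0.62 (SE 0.09, adjusted p = 0.00797), but not in E7.1, at 0.13 (SE 0.08, adjusted p = 0.296).

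Cdc45 and the GINS complex complete the active helicase. *Cdc45* was measured at 79.6, 95.4 and 88.3 CPM in the parental libraries, 119, 106 and 112 for E6.1, 74.6, 86.5 and 53.3 for E6.2, 103, 98.2 and 91.1 for E7.1 and 112, 120.2 and 21.2 for E7.2. E6.1 lay above the parental range in all libraries, and E7.2 held both the highest and the lowest of the 15 values. *Gins2*, whose count is uncertain as described above, was measured at 7.08, 6.59 and 5.44 CPM in the parental libraries, 7.77, 8.90 and 6.81 for E6.1, 3.66, 6.05 and 5.05 for E6.2, 10.95, 9.58 and 8.47 for E7.1 and 10.9, 12.1 and 3.37 for E7.2. The log2 fold change in E7.2, the largest of all members in that clone, was 0.46 (SE 0.35, adjusted p = 0.557) with all libraries and 0.88 (SE 0.21, adjusted p = 0.0593) with 13. It was not called in E7.2, and with 13 libraries it was called in E7.1, at 0.63 (SE 0.20, adjusted p = 0.0486). *Gins4* varied least within lines over all 15 libraries among these 5 genes, and with 13 libraries it was called higher in E7.1 at 0.47 (SE 0.10, adjusted p = 0.0117) and in E7.2 at 0.47 (SE 0.11, adjusted p = 0.0488). *Gins1* and *Gins3* were called in neither.

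Polymerase alpha-primase makes the primers. *Pola1*, its catalytic subunit, was measured at 237, 274 and 226 CPM in the parental libraries, 256, 282 and 283 for E6.1, 191, 212 and 99.4 for E6.2, 204, 195 and 216 for E7.1 and 263, 248 and 63.3 for E7.2. All E7.1 libraries lay below the parental range, as did all E6.2 libraries. *Pola2*, its regulatory partner, differed from it in E7.1, where the log2 fold change was 0.61 (SE 0.10, adjusted p = 0.00525) for *Pola2* and -0.24 (SE 0.10, adjusted p = 0.133) for *Pola1* with 13 libraries. In E7.2 the log2 fold change of *Pola1* turned from -0.36 with all libraries to 0.0915 with 13. The primase subunits *Prim1* and *Prim2* were called in no clone against parental cells, with log2 fold changes between -0.36 and 0.28 with 13 libraries.

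The polymerases of the leading and lagging strands were measured through 5 genes. *Pold1*, the catalytic subunit of polymerase delta, was measured at 66.1, 39.1 and 27.9 CPM in the parental libraries, 28.3, 42.3 and 30.1 for E6.1, 18.8, 23.3 and 31.1 for E6.2, 51.3, 56.8 and 55.8 for E7.1 and 52.3, 61.4 and 16.3 for E7.2. The parental libraries themselves differed by more than the fold change of most members, and E6.2 replicates 1 and 2 held the lowest values apart from E7.2 replicate 3. The log2 fold change was -0.86 (SE 0.40, adjusted p = 0.376) in E6.2 and -0.40 (SE 0.39, adjusted p = 0.965) in E6.1. *Pold2*, the most abundant of the 5 per length, was measured at 47.0, 36.4 and 27.4 CPM in the parental libraries, 34.8, 37.6 and 30.6 for E6.1, 24.2, 33.1 and 58.3 for E6.2, 48.2, 51.0 and 50.9 for E7.1 and 48.7, 51.5 and 29.3 for E7.2. E6.2 replicate 3 was the highest of the 15 libraries, unlike its place for most other members. *Pold3*, *Pole* and *Pole2* had log2 fold changes in E7.1 of -0.17, -0.05 and 0.69 with 13 libraries, of which that of *Pole2* was called (edgeR, adjusted p = 0.0281).

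The sliding clamp and its loader held 5 of the 21 genes called higher in E7.1 with 13 libraries. *Pcna*, the clamp, was measured at 427, 350.5 and 367 CPM in the parental libraries, 393, 422 and 344 for E6.1, 255, 345 and 201 for E6.2, 647, 476 and 528 for E7.1 and 508, 444 and 147 for E7.2. All E7.1 libraries lay above the parental range and all E6.2 libraries below it. In E7.1 its log2 fold change was 0.53 (SE 0.34, adjusted p = 0.397) with all libraries and 0.55 (SE 0.15, adjusted p = 0.0314) with 13. *Rfc3*, a subunit of the clamp loader, was measured at 39.97, 31.7 and 32.9 CPM in the parental libraries, 35.5, 44.2 and 38.9 for E6.1, 28.3, 31.1 and 47.8 for E6.2, 54.1, 45.1 and 45.0 for E7.1 and 48.4, 47.4 and 45.5 for E7.2. Its level in E7.2 replicate 3 lay within the range of the E7.1 libraries, and it was the only member with all E7.2 libraries above all parental libraries. Log2 fold changes were 0.46 (SE 0.18, adjusted p = 0.168) in E7.1 and 0.43 (SE 0.18, adjusted p = 0.334) in E7.2 with all libraries. With 13 libraries, *Pcna* and the loader genes *Rfc1, Rfc2, Rfc3* and *Rfc5* were called higher in E7.1, with log2 fold changes from 0.40 to 0.55, while *Rfc4* had -0.41 (SE 0.18, adjusted p = 0.148).

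RPA, the protein that coats single-stranded DNA, has 3 subunits. *Rpa3*, the smallest subunit and the most abundant per length, was measured at 85.5, 48.8 and 62.5 CPM in the parental libraries, 69.6, 68.2 and 73.5 for E6.1, 56.1, 76.6 and 35.1 for E6.2, 92.7, 83.4 and 91.5 for E7.1 and 86.6, 60.4 and 45.2 for E7.2. Parental and E7.1 libraries overlapped. *Rpa1* was the only RPA gene called in E7.1 with 13 libraries, at 0.67 (SE 0.15, adjusted p = 0.0146), and *Rpa2* had 0.25 (SE 0.14, adjusted p = 0.228). For the joining of Okazaki fragments, *Lig1*, the ligase, was measured at 141, 135 and 124 CPM in the parental libraries, 157, 158 and 155 for E6.1, 103, 107 and 81.9 for E6.2, 192, 191 and 176 for E7.1 and 204, 214 and 36.5 for E7.2. The libraries of each line other than E7.2 lay close together and the lines were apart, in the order E6.2, parental, E6.1 and E7.1. With 13 libraries its log2 fold change was 0.51 (SE 0.09, adjusted p = 0.00722) in E7.1 and 0.69 (SE 0.09, adjusted p = 0.00459) in E7.2. *Fen1* had a log2 fold change of 0.44 (SE 0.34, adjusted p = 0.401) in E7.1.

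Ribonucleotide reductase, which makes deoxynucleotides from ribonucleotides, showed the widest range of all 46 genes. *Rrm2*, its regulatory subunit, was measured at 198, 127 and 119 CPM in the parental libraries, 159, 162 and 149 for E6.1, 93.3, 106 and 27.2 for E6.2, 372, 228 and 239 for E7.1 and 232, 218 and 20.5 for E7.2. Its highest library was 18.1 times its lowest, all E7.1 libraries lay above the parental range, all E6.2 libraries lay below it, and the third replicates of E6.2 and E7.2 were far below the others. The log2 fold change was 0.92 (SE 0.63, adjusted p = 0.437) for E7.1 and -0.98 (SE 0.63, adjusted p = 0.52) for E6.2 with all libraries. With 13 libraries it was 0.94 (SE 0.20, adjusted p = 0.0127) in E7.1 and -0.58 (SE 0.23, adjusted p = 0.182) in E6.2. *Rrm1*, the catalytic subunit, was measured at 468, 389.7 and 365 CPM in the parental libraries, 410.4, 458 and 417 for E6.1, 256, 334 and 245 for E6.2, 648, 515 and 556 for E7.1 and 567, 543 and 149 for E7.2. The same libraries were high and low, over a narrower range. The thymidylate synthase gene *Tyms* and the dUTPase gene *Dut* were also called higher in E7.1 with 13 libraries, at 0.60 (SE 0.12, adjusted p = 0.0104) and 0.51 (SE 0.15, adjusted p = 0.0411). *Tk1*, the thymidine kinase of the salvage pathway, was called in no comparison with all or with 13 libraries, and its E6.2 libraries spread from 21.1 to 66.0 CPM.

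**Figure D4:**
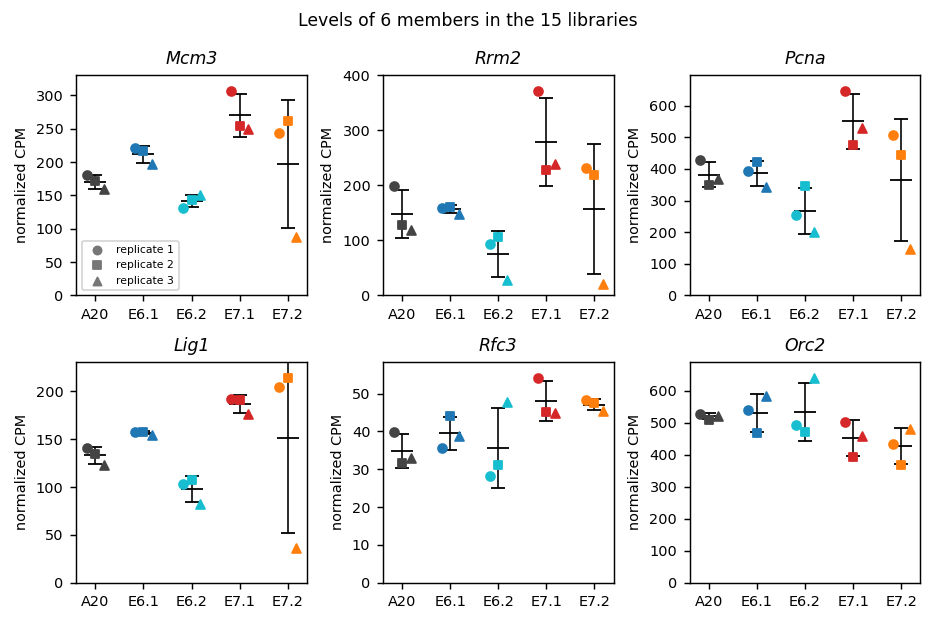
Level in CPM (vertical axis, from 0) of 6 of the 46 genes in the 5 lines (horizontal axis), with points for the 3 libraries of each line and the mean with SD as bars. For *Mcm3, Rrm2, Pcna* and *Lig1* replicate 3 of E7.2 is the lowest point, while for *Rfc3* it lies with the other E7.2 libraries and for *Orc2* it is the highest E7.2 library.

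The clones mutated in exon 7 were next compared with those mutated in exon 6. There were 2 clones of each kind. The SE and p-values here measure the spread between passages within lines and not the spread between clones. With all 15 libraries 36 of the 46 genes were higher in the E7 clones, with a median log2 fold change of 0.25 against -0.03 over all tested genes, and the smallest adjusted p was 0.0594, for *Rpa1* at 0.57 (SE 0.19) (edgeR). With 13 libraries 29 were called higher, where 18.5% of all tested genes were, and 2 lower, where 14.7% were, and the median log2 fold change was 0.41 against -0.02. The largest differences were those of *Pold1*, 1.10 (SE 0.20, adjusted p = 0.00261), and *Rrm2*, 1.04 (SE 0.16, adjusted p = 0.00136). *Lig1* had the smallest adjusted p, with 0.65 (SE 0.07, adjusted p = 0.000162). The 2 members called lower were *Orc5*, -0.51 (SE 0.13, adjusted p = 0.00975), and *Rfc4*, -0.44 (SE 0.14, adjusted p = 0.035). All 6 MCM genes were called, from 0.37 for *Mcm2* to 0.64 for *Mcm3*, as were 4 of the 5 genes of nucleotide supply, the exception being *Tk1* at 0.07. Of the 6 subunits of the origin recognition complex only *Orc1* was called higher, at 0.71 (SE 0.13, adjusted p = 0.0026). When only E7.2 replicate 3 was left out 25 members were called, against 17.7% of all tested genes. When only E6.2 replicate 3 was left out 7 of the 46 were, a share below the 26.8% of all tested genes.

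**Figure D5:**
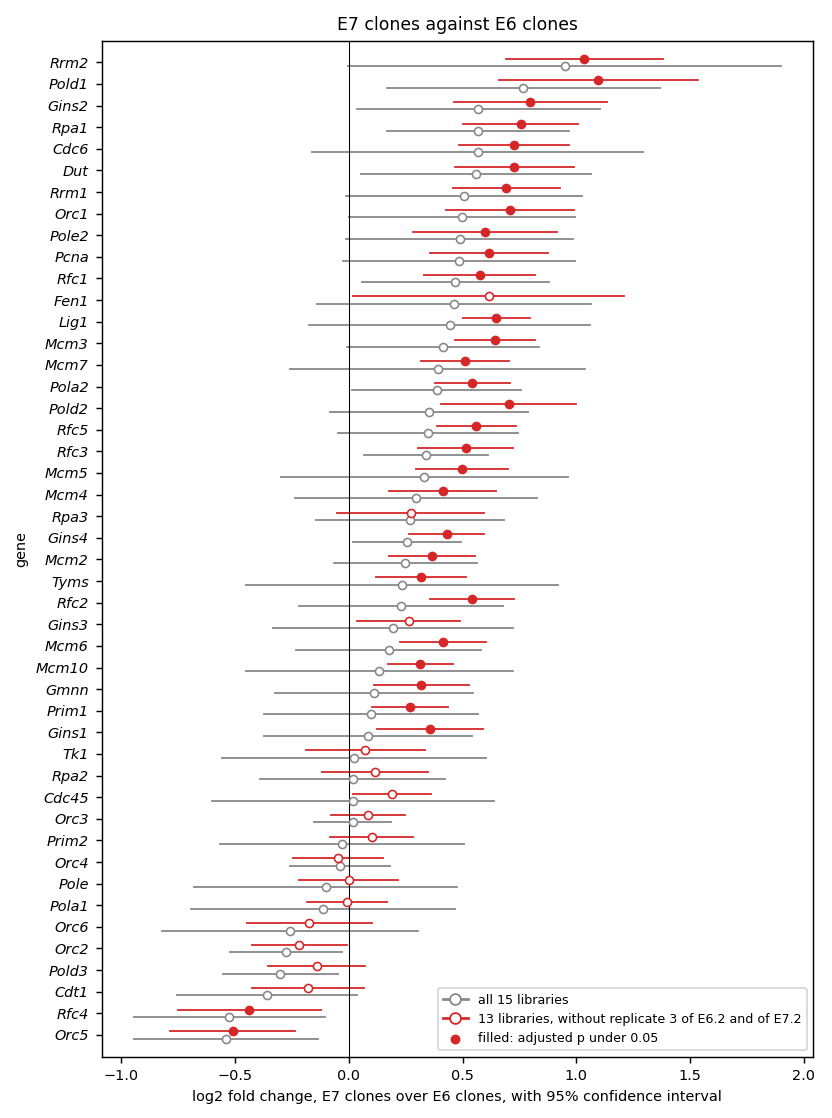
Log2 fold change of each of the 46 genes (vertical axis) between the E7 and the E6 clones (horizontal axis) with its 95% confidence interval, for all 15 libraries in grey and for 13 libraries in red, where filled points passed an adjusted p of 0.05. The point estimates of most genes lie to the right of 0 in both fits, the intervals are narrower with 13 libraries, and *Orc5* and *Rfc4* lie furthest to the left.

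The 2 clones of a kind were also compared with each other. With all 15 libraries 0 of the 46 genes were called for E6.2 against E6.1 and 0 for E7.2 against E7.1, where 1.24% and 0.59% of all tested genes were. Fits of only the lines compared also called 0. Counts and p-values with 13 libraries are again descriptive, since libraries were left out for their deviation in these genes. With 13 libraries 17 members were called lower in E6.2 than in E6.1, where 1.86% of all tested genes were called lower, and 0 were called higher. They included *Cdc6* at -0.91 (SE 0.16, adjusted p = 0.00907), *Mcm10* at -0.64 (SE 0.10, adjusted p = 0.00245), *Lig1* at -0.58 (SE 0.10, adjusted p = 0.00589) and *Rpa1* at -0.70 (SE 0.17, adjusted p = 0.0411), but none of the origin recognition complex or nucleotide supply genes. The median log2 fold change of the nucleotide supply genes was still -0.55, with 1 of 5 higher. It was -0.56 for the MCM genes and -0.17 for the origin recognition complex. In E6.1, 41 of the 46 genes had a positive log2 fold change against parental cells, with a median of 0.25, and in E6.2, 9 had a positive value, with a median of -0.25. Between the E7 clones *Mcm10* was the only member called, at 0.49 (SE 0.09, adjusted p = 0.0282), where 0.763% of all tested genes were called. The median log2 fold change between the E7 clones was 0.06 with 13 libraries and -0.25 with all 15.

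Over the 15 libraries the log2 levels of the members moved together. The mean Pearson correlation over all pairs of the 46 genes was 0.59, against 0.000598 over pairs of all tested genes, and without the 2 deviating libraries it was 0.40 against 0.000828. These correlations describe libraries of which 3 share each line, and they were higher with the deviating libraries. Over 15 libraries *Mcm5* followed the mean of the other members most closely, with r = 0.99, and it had 0.96 over 13, where *Rfc5* had the highest value, 0.98. *Lig1* and *Cdc6* followed with 0.99 and 0.98 over 15. *Orc4* and *Orc2* had negative values, -0.36 and -0.32, and *Pold3* and *Rfc3* had 0.19 and 0.19. Over 13 libraries *Rfc3* reached 0.91 and *Pold3* had -0.39, the lowest of the 46, while *Rfc4*, *Cdt1*, *Tk1* and *Orc5* had -0.22, 0.02, -0.07 and -0.30. Outside the list, the genes with the most similar pattern over the 15 libraries were *Tpx2* (r = 0.99), *Chaf1a* (0.97), *Ndc1* (0.97), *Fbxo5* (0.97) and *Exo1* (0.97), and over 13 libraries they had 0.94, 0.92, 0.86, 0.86 and 0.94.

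The promoters of these genes were also searched for short words. Whether such words go with the way the members moved together was not tested. RefSeq promoter sequences of GRCm38.p6 were matched for 38 of the 46 genes, each 300 bases around the transcript start. The E2F words TTTCGCG or TTTGGCG, on either strand, occurred in 14 of the 38 (36.8%), against 725 of 27025 genes (2.68%). The CCAAT box occurred in 60.5% of the members against 41.1% of genes, the E box CACGTG in 18.4% against 8.09%, and the CHR word TTTGAA, known from genes of the G2 and M phases, in 13.2% against 20.2%. A match describes letters only and is not a shown binding site. The 160 bases upstream of the RefSeq start are printed 5′ to 3′ for 4 genes whose upstream part holds an E2F word, *Mcm5, Mcm6, Orc1* and *Rfc3*, and for 2 where it holds none, *Rrm2*, the member with the widest range, and *Orc2*, which moved little. Capitals mark the E2F words and the CCAAT box on either strand.
Mcm5 (chr8:75109349-75109508, plus strand): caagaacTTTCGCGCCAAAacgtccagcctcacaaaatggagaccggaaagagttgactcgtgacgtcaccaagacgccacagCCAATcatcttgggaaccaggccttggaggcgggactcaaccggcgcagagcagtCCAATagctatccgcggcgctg
Mcm6 (chr1:128359706-128359865, minus strand): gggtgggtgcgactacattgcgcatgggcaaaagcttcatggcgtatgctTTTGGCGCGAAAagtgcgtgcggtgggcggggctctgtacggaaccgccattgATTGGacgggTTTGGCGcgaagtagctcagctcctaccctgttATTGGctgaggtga
Orc1 (chr4:108579294-108579453, plus strand): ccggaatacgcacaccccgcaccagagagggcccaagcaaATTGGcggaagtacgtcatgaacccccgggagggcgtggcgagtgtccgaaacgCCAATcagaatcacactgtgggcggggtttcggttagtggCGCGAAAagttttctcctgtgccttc
Rfc3 (chr5:151651209-151651368, minus strand): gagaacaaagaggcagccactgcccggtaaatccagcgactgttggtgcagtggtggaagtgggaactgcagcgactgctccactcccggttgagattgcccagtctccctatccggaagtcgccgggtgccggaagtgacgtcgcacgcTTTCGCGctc
Rrm2 (chr12:24708094-24708253, plus strand): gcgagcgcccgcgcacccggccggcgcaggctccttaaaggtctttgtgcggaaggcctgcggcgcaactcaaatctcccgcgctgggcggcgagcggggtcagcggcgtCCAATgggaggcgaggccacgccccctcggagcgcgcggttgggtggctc
Orc2 (chr1:58505110-58505269, minus strand): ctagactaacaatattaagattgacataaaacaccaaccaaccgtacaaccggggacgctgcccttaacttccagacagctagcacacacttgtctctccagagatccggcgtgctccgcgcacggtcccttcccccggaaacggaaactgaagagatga

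In *Mcm5* an E2F word on each strand overlaps the other, so that 1 run of capitals holds both. *Mcm6* has such an overlapping pair and a further word nearer to the start. *Orc1* and *Rfc3*, whose E2F words lie close to the start, had different levels in E7.2 replicate 3, where *Orc1* was at 8.21 CPM against 27.0 and 27.4 CPM in the other libraries of the clone and *Rfc3* at 45.5 against 48.4 and 47.4 CPM. *Rrm2*, with a CCAAT box and no such word in the stretch shown, had the steepest drop in that library, to 20.5 CPM against 232 and 218 CPM. These are single genes in 1 library, and whether the words bear on the levels was not tested.

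Genes that work beside the 46 were given as 4 further lists. With all 15 libraries and edgeR's quasi-likelihood test, 3 of 25 accessory replication genes were called between the E7 and E6 clones, 1 of 27 genes of nucleotide synthesis was, and 0 of 13 genes of the E2F and Rb family and 0 of 25 mitosis genes were, so that no list exceeded the 12.1% called among all tested genes. For the 4 lists in that order, 7, 9, 5 and 6 genes had an unadjusted p under 0.05 there, against 30.3% of all tested genes. The nucleotide synthesis list and the E2F and Rb family list exceeded that share. DESeq2's test called 7, 4, 2 and 4, against 19.4%, a share that the accessory list exceeded. *Mthfd1*, which makes folate units for thymidylate and purine synthesis, was called higher in the E7 clones, where it was 208 ± 30.7 and 151 ± 43.5 CPM (SD, n = 3) for clones 1 and 2, against 143 ± 13.3 and 113 ± 4.92 CPM for the E6 clones. *Rnaseh2c*, a subunit of the RNase that removes ribonucleotides from DNA, was also called higher in the E7 clones, and *Mtbp*, a partner in origin firing, and *Recql4*, a helicase of origin firing, were called lower. With 13 libraries, between the E7 and E6 clones, 14 of the 25 accessory genes were called higher and 2 lower, 14 of the 27 nucleotide synthesis genes higher and 1 lower, 8 of the 13 E2F and Rb family genes higher and 1 lower, and 17 of the 25 mitosis genes higher and 0 lower, where 18.5% of all tested genes were called higher and 14.7% lower. In E7.1 against parental cells the corresponding counts were 7 and 0, 8 and 1, 4 and 2, and 12 and 0, against 8.8% higher and 6.36% lower. The 2 genes of the E2F and Rb family with the smallest p among the 5 lines were *Rb1*, the retinoblastoma repressor of E2F, and *E2f6*, a repressive E2F. *Rb1* was 104 ± 23.3 CPM in parental cells and 57.7 ± 5.38 CPM in E7.1. The other clones also had *Rb1* means below the parental mean. They were 65.6 ± 1.93 CPM for E7.2, 72.8 ± 17.9 CPM for E6.1 and 80.8 ± 16.2 CPM for E6.2. Parental replicate 1 was itself at 76.9 CPM, and the libraries of both E6 clones overlapped the parental range. *E2f6* was 35.3 ± 2.76 CPM in parental cells and 47.7 ± 6.76 CPM in E7.1, and 34.5, 34.4 and 35.1 CPM for E6.1, E6.2 and E7.2. For mitosis the 2 genes with the smallest p were *Cdc20*, an activator of the anaphase-promoting complex, and the kinesin *Kif20a*. *Cdc20* was 56.7 ± 29.8 CPM in parental cells and 132 ± 7.18 CPM in E7.1. *Kif20a* was 50.7 ± 20.1 and 111 ± 10.6 CPM in the same order. For E6.1, E6.2 and E7.2 the means were 54.0, 64.3 and 70.0 CPM for *Cdc20* and 48.7, 46.1 and 60.5 CPM for *Kif20a*. The parental libraries were split, with replicate 1 at 91.1 CPM for *Cdc20* against 40.6 and 38.4, and at 73.8 CPM for *Kif20a* against 38.1 and 40.1.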

How the data were processed

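Total RNA of cultured A20 cells and the 4 clones was sequenced in 3 libraries per line, which the labels describe as biological replicates of separate passages, so p-values measure the spread between passages of a line. Per the file headers, the deposited values are raw counts of read pairs per gene, made by the authors with HISAT and featureCounts 1.5.0 on a GRCm38 annotation with 92 spike-ins, whose total count was 0. The header shows no strand option, so that antisense genes cannot be told apart, and read pairs on several genes or places were not counted. The version of HISAT is not given in the sources used here. Identifiers were matched to symbols for 40254 of 41388 genes.

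With edgeR 4.0.16 (R 4.3.3), the counts were passed through filterByExpr, scaled with TMM and fitted with glmQLFit and glmQLFTest on all 15 libraries with the line as factor. P-values were Benjamini-Hochberg adjusted over all tested genes of a comparison, and those under 0.05 count as called. Positions and shared exon bases come from the counted annotation, and near-identical transcripts, of at least 95% identity, from blastn 2.17.0 on GENCODE. The members, gene lists, comparisons and the removal of 2 libraries were chosen with earlier results of these data known. Values in every library are given for the 3 members with the largest absolute log2 fold change in each clone and for the member of each role with the highest RPKM in parental cells. Genes of other lists are named where called, and otherwise as the 2 of a list with the smallest p for any difference among the lines. Replicates of a line differed by a chi-square per gene between 34.4 and 768, so none was a copy of another. Tested on simulated data for E7.2 against parental cells with 13904 genes, the method recovered 1 of 67 genes changed 1.5-fold, 24 of 67 changed 2-fold and 57 of 66 changed 4-fold, with 4 false calls. Alternatives were DESeq2 1.42.0's size factors or test, no filter, edgeR's newer quasi-likelihood method, only the lines compared, a replicate block, and leaving out each library in turn or 2 together.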

Additional observations from a re-analysis of the deposited data

Results flagged for a closer look

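None of the 46 genes met a criterion for a closer look with all 15 libraries. Of the other lists, 4 genes differed between the E7 and E6 clones by edgeR's quasi-likelihood test of that difference, with Benjamini-Hochberg adjustment over all tested genes. The log2 fold change, E7 over E6, was -0.35 for *Mtbp* (adjusted p = 0.0465) and -0.44 for *Recql4* (adjusted p = 0.0337). It was 0.86 for *Rnaseh2c* (adjusted p = 0.0491) and 0.48 for *Mthfd1* (adjusted p = 0.0337). Without replicate 3 of E6.2 and E7.2 the values were -0.27, -0.39, 1.19 and 0.64, and each had an adjusted p under the threshold, between 0.00128 and 0.0365. Their causes were not tested.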

How the results depend on the processing

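With DESeq2's size factors, with the newer quasi-likelihood method and with the replicate block, 0 members were called in all 9 comparisons, as in the report. Without a filter on low counts 2 members were called between the E7 and E6 clones (*Pold1* and *Rpa1*) and 2 for any difference (*Orc1* and *Rpa1*), against 6.17% and 6.53% of all genes in those fits, and with DESeq2's test 4 and 3, against 19.4% and 22.6%. With only the lines compared, 2 were called in E7.1, against 1.29% of all genes, and 0 in the other comparisons. Without replicate 3 of both E6.2 and E7.2, the counts were 21 in E7.1, 10 in E7.2, 1 for the mean of the clones, 31 for E7 against E6, 17 for E6.2 against E6.1, 1 for E7.2 against E7.1 and 34 for any difference, and the log2 fold change of *Pola1* in E7.2 was 0.0915 in place of -0.36. Fewer libraries entered these fits, and the spread within lines was smaller. Leaving out 1 library at a time gave 0 to 8 members in E7.1, 0 to 2 in E7.2, 0 to 25 for E7 against E6, 0 to 11 for E6.2 against E6.1 and 0 to 26 for any difference, with the highest count each time without E7.2 replicate 3. The share of all tested genes called in these fits moved as well, from 0.209% to 7.05%, 0.0972% to 1.33%, 2.77% to 26.8%, 0.73% to 2.09% and 2.45% to 20.2% in the same order, and without E7.2 replicate 3 it was 4.25%, 0.223%, 17.7%, 2.09% and 11.7%. Since the spread is shared, that library also changed comparisons it is not part of. Without E6.2 replicate 3 alone, 1 member (*Rfc3*) was called in E7.1, 7 for E7 against E6 and 2 (*Gins4* and *Rfc3*) for any difference, shares below the 7.05%, 26.8% and 20.2% of all tested genes. For *Pola1* in E7.2 the values lay between -0.66 and 0.0917, and only without E7.2 replicate 3 was the sign positive. The replicate numbers were not treated as pairing the libraries. Deviations from the line means correlated with a mean r of 0.05 between libraries of the same number and -0.02 otherwise, 11 of 30 same-number pairs were over 0.1, and 10 of 15 libraries were closest to their own number. At the spread seen here, changes of 1.5-fold in E7.2 against parental cells were mostly not detectable with all 15 libraries, as the recovery on simulated data shows.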
